A study of Mus musculus with 6 samples.

Results

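The EGR zinc finger factors, the NAB co-repressors that bind them and the NR4A nuclear receptors were examined in RAW264.7 cells, an immortalised mouse macrophage line that takes on osteoclast features under the cytokine RANKL. The 8 genes, Egr1, Egr2, Egr3, Nab1, Nab2, Nr4a1, Nr4a2 and Nr4a3, are 8 of the 55536 gene IDs in each deposited table. They were chosen by gene family, with their fold changes between the groups already known. Those fold changes are therefore given as a description, with calls read from the fit over all genes and no p-value of their own. One set of cells received RANKL at 50 ng/mL together with 4 µM etelcalcetide, a peptide agonist of the calcium-sensing receptor (3 libraries), and the other received RANKL at 50 ng/mL alone (3 libraries). No cells without RANKL were analysed here. The series text gives 5 days of culture for both groups, whereas the labels of replicates 1, 2 and 3 give 5, 6 and 7 days in each group. The labels do not say that replicates were separate cultures, so errors and p-values here reflect only sample-to-sample spread, possibly of technical origin. If the labelled days are right, that spread also includes differences in days of culture.

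EGR and NR4A genes are classic immediate-early genes: growth factors, calcium signals and stress induce them within minutes, through the ERK kinase cascade acting on SRF and its ETS partners, and through CREB and MEF2. EGR proteins bind GC-rich sites, and they induce Nab2, whose protein in turn binds EGR proteins and recruits the NuRD chromatin complex to repress their targets. NR4A receptors act without a known physiological ligand and bind DNA as monomers, as dimers or, for Nr4a1 and Nr4a2, with RXR. In mouse myeloid precursors Egr1 and Egr2 have been described as favouring macrophage differentiation, and in mouse cultures Egr2 has been described as restraining osteoclast formation.

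Of the 8 genes, 6 had an entry among the RefSeq promoters of build GRCm38.p6, and Egr1 and Egr3 were not searched. The NR4A promoters are shown because these 3 genes were higher together with etelcalcetide. The 250 bases before each annotated start were searched on both strands for the core of the cAMP response element, TGACG, which CREB recognises. Nr4a1, Nr4a2 and Nr4a3 each held at least 4 cores, a number reached in 0.137% of the 32851 promoter windows searched. At least 1 core was found in 17.8% of windows, at least 2 in 3.90% and at least 3 in 0.688%. Egr2 held 2 cores, Nab1 held 1 and Nab2 held 0, so cores were also found at Nab1, which did not pass the test below. The cutoff of 4 is the count of the NR4A genes themselves, so its share is a description only. Windows of neighbouring starts can overlap, and the window of Nr4a1 lies inside the longer gene that GENCODE annotates. The cores are in capitals, in either orientation. For Nr4a3 only the 98 bases before the first exon base annotated by GENCODE are printed, which hold 3 of its cores. Its remaining core lies in the 152 window bases that GENCODE annotates as exon. The stretches are chr15:101266596-101266845 (plus strand), chr2:57124004-57124253 (minus strand) and chr4:48045055-48045152 (plus strand).
Nr4a1: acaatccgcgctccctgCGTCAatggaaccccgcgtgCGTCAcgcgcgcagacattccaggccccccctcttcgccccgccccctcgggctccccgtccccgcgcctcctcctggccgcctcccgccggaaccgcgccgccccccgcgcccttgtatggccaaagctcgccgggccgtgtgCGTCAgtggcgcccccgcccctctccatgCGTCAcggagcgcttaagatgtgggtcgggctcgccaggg
Nr4a2: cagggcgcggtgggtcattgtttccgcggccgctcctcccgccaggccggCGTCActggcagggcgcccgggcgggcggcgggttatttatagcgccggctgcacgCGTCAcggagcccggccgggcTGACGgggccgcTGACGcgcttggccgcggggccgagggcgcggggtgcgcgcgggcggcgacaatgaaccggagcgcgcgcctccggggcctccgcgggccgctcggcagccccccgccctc
Nr4a3: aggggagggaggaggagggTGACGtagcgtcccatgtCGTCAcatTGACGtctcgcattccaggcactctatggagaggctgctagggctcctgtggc

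Among the 6 members searched, of which Egr2 was the only EGR factor, a CArG box, the site bound by SRF, was found for Egr2 alone, and is shown because it is the element through which serum and ERK signals reach EGR genes. CArG boxes occurred in 1.47% of the promoter windows, a share per window and not per gene. Egr2 had more windows searched than any other member, so it had more chances of a match. Of 2 boxes at Egr2, 1 lay 72 bases before an annotated start, within chr10:67537787-67537816, and 1 lay 72 bases before another annotated start, within chr10:67537484-67537513, both on the plus strand and in capitals below.
Egr2 downstream box: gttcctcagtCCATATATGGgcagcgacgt
Egr2 upstream box: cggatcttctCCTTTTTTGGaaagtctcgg
The EGR site GCGNGGGCG, found in 4.70% of windows, had 3 matches in the window of Nab1, 1 in that of Nr4a1 and 1 in that of Nr4a2. These matches overlapped none of the capitals above. Of the 250 bases of the Nab1 window, 231 lie in exons annotated by GENCODE, and these hold all 3 of its matches. The full CRE TGACGTCA (1.55% of windows) and the NR4A monomer site AAAGGTCA (1.34% of windows) had no match in the windows of these 6 genes. These matches describe letters in a window and do not show binding.

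The authors deposited FPKM, fragments scaled by exon length and library total, so levels can be compared between genes. Recovered totals ran from 13742913 to 16264432 reads per library, and 3 reads, the floor used for a gene at 0, are worth 0.0308 to 0.0742 FPKM for the members. Genes were tested with limma when at least 3 libraries reached 0.5 FPKM and 10 reads, and called at a Benjamini-Hochberg adjusted p under 0.05. Of 11120 genes tested, 55.1% were called, 26.6% higher in the etelcalcetide libraries and 28.5% lower. That is 2959 higher and 3165 lower, a split that became 3643 and 2445 when libraries were scaled by their totals only. The macrophage markers Adgre1, Cd68, Csf1r, Itgam, Lyz2 and Cd14 were all tested and Adgre1, Itgam and Cd14 were higher, with summed levels of 3123 to 3302 FPKM with etelcalcetide and 2697 to 2860 FPKM with RANKL alone. The 6 osteoclast markers summed to 5.51 to 7.37 FPKM with etelcalcetide and 196 to 284 FPKM with RANKL alone; 5 were tested and all 5 were lower, and Calcr, the calcitonin receptor, had too few reads to test. Oscar and Calcr had 0 reads in the etelcalcetide libraries. Of 4 dendritic cell markers 2 were tested and 1 was higher, with sums of 9.65 to 10.9 FPKM with etelcalcetide and 7.08 to 9.94 FPKM with RANKL alone. In bulk RNA a smaller share of osteoclast-like cells and less of these RNAs per cell cannot be told apart, and the part of either in the values below was not tested. Of 19 markers of T cells, B cells, neutrophils, fibroblasts, epithelium and endothelium none was high enough to test, and the highest single value was 0.211 FPKM, for Cd79a.

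All 8 members were high enough to test, Nr4a3 only through the etelcalcetide libraries. In that fit 7 were called higher, 0 were called lower, and Nab1 did not pass, beside a background of 26.6% called higher. After scaling, the same 7 genes had all etelcalcetide libraries above all RANKL libraries, beside 30.7% of all tested genes. Because the members were proposed with this contrast known, neither count is read as a result about them. The median log2 fold change was 1.99 over the members and -0.01 over all tested genes.

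**Figure D1:**
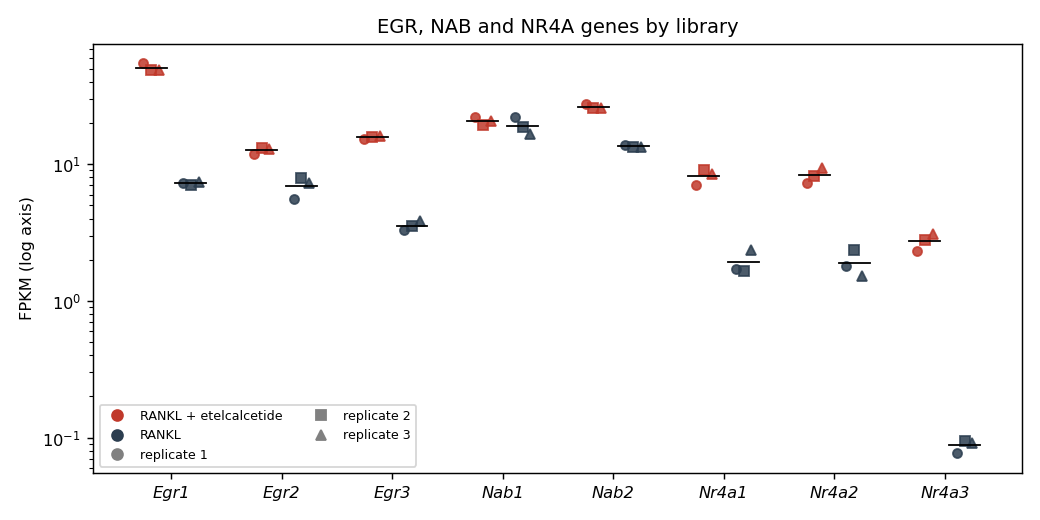
FPKM (log axis) of each gene in every library, with RANKL plus etelcalcetide in red at the left of each pair and RANKL alone in dark blue at the right; marker shapes give the replicate number and bars the group means (n = 3 each). Egr1 sits at 48.7 to 54.6 FPKM with etelcalcetide and at 7.02 to 7.41 FPKM with RANKL alone, while the points of Nab1 overlap.

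Egr1, the best-studied member of the zinc finger family (chromosome 18, 34859823 to 34864984 on GRCm38, plus strand), had 54.6, 48.7 and 49.3 FPKM in etelcalcetide replicates 1 to 3, against 7.32, 7.02 and 7.41 FPKM in RANKL replicates 1 to 3. The lowest etelcalcetide library was 6.56 times the highest RANKL library, so the groups lay far apart relative to their spread. The fold change was 6.55 (log2 fold change 2.71, SE 0.0641, n = 3 per group). Of the 11120 tested genes, 27 had a larger increase, and decreases were not counted in this rank.

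Egr3, a close relative induced by the same signals (chromosome 14, 70077203 to 70082614, plus strand), had 15.4, 15.9 and 16.2 FPKM in the etelcalcetide libraries and 3.29, 3.53 and 3.83 FPKM in the RANKL libraries. The groups did not overlap, and each varied little among its replicates. Its log2 fold change was 2.05 (SE 0.0810).

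Egr2, also known as Krox20 (chromosome 10, 67535475 to 67542188, plus strand), had 11.8, 13.2 and 13.0 FPKM with etelcalcetide and 5.55, 7.95 and 7.25 FPKM with RANKL alone. All treated libraries were above all RANKL libraries, with RANKL replicate 1 the lowest of the 6. The log2 fold change was 0.80 (SE 0.116), and 0.65 without RANKL replicate 1. Egr4, the remaining EGR gene, and Wt1, a zinc finger gene of related structure, had 0 reads in all 6 libraries, and for Egr4 the floor of 3 reads per library equals 0.0859 to 0.102 FPKM.

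The makeup of the EGR family differed between the groups. Summed over Egr1, Egr2 and Egr3, the level was 79.4 ± 2.16 FPKM with etelcalcetide and 17.7 ± 1.35 FPKM with RANKL alone (mean ± SD, n = 3 each). Egr1 made up 62.6% to 66.7% of that sum with etelcalcetide and 38.0% to 45.3% with RANKL alone. Egr2 held 14.4% to 17.0% with etelcalcetide and 34.4% to 43.0% with RANKL alone. The share of Egr3 was close in the groups, at 18.8% to 20.6% with etelcalcetide and 19.1% to 20.7% with RANKL alone. With RANKL alone the levels of Egr1 and Egr2 overlapped, whereas with etelcalcetide Egr1 was 3.68 to 4.62 times Egr2 in every library.

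Nab2, the inducible co-repressor (chromosome 10, 127660918 to 127668568, minus strand), had 27.4, 25.8 and 25.6 FPKM with etelcalcetide, against 13.8, 13.3 and 13.4 FPKM with RANKL alone. The 3 etelcalcetide libraries were all above the RANKL libraries, and both groups were tight. Its log2 fold change was 0.88 (SE 0.0662). Genes on the opposite strand share 42.2% of its exon length, and the sources used here do not say whether counting used strand. Gm16229, which covers 35.7%, had 0 reads in every library, Nemp1 covers 5.13% and Stat6 1.36%. Stat6 stood at 58.3 ± 0.0581 FPKM with etelcalcetide and 43.9 ± 2.27 FPKM with RANKL alone (log2 fold change 0.33, limma adjusted p = 0.000235). Nemp1 had a log2 fold change of 0.19 (limma adjusted p = 0.0411). The part of these genes in the value of Nab2 was not tested. Orders and ratios with Nab2 below therefore hold for the deposited FPKM only.

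Nab1, the co-repressor made more constantly (chromosome 1, 52457294 to 52500679, minus strand), had 22.0, 19.4 and 20.8 FPKM with etelcalcetide and 22.0, 18.6 and 16.7 FPKM with RANKL alone. The groups overlapped, and the RANKL libraries spread more widely. The log2 fold change was 0.05 (SE 0.0895), and -0.05 without RANKL replicate 3, so no direction is given. Nab1 was the highest of the 8 genes with RANKL alone, with no overlap with Nab2 below it.

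**Figure D2:**
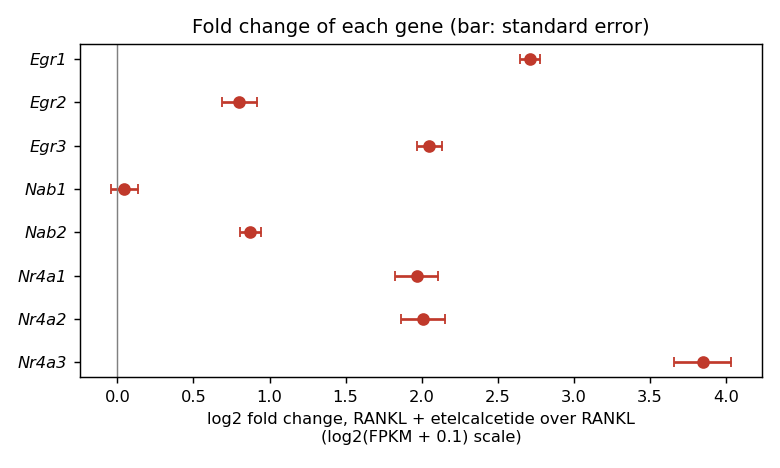
Log2 fold change of each gene, RANKL plus etelcalcetide over RANKL, on the log2(FPKM + 0.1) scale, with the standard error of the limma fit as bars (3 libraries per group). The points run from 0.05 for Nab1 to 3.85 for Nr4a3.

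Factors and co-repressors were then set against each other within each library, which removes the library's depth from the value. Summed EGR FPKM over summed NAB FPKM was 1.65, 1.72 and 1.69 in etelcalcetide replicates 1 to 3 and 0.451, 0.580 and 0.615 in RANKL replicates 1 to 3. Summed EGR FPKM thus exceeded summed NAB FPKM in all etelcalcetide libraries and in none of the RANKL libraries. Egr1 alone over Nab2 was 1.93 ± 0.0532 with etelcalcetide and 0.537 ± 0.0148 with RANKL alone. Nab2 over Nab1 was 1.25, 1.33 and 1.23 with etelcalcetide and 0.628, 0.717 and 0.803 with RANKL alone. The order of the co-repressors in deposited FPKM thus differed between the groups. How reads in the 42.2% of Nab2 exon length shared with other genes were counted is not known. The level of Nab2 against other genes, and so this order and the ratios with NAB, could depend on it.

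**Figure D3:**
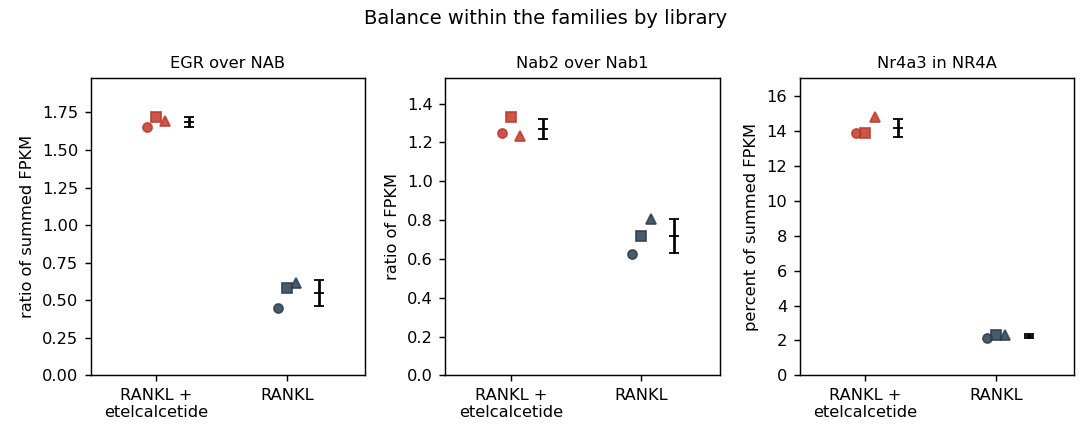
Ratios and shares of FPKM in each library, with RANKL plus etelcalcetide at the left and RANKL alone at the right of each panel; black marks give the mean and SD (n = 3 each). EGR over NAB is above 1.6 in the treated libraries and below 0.7 in the others, and Nr4a3 holds 13.9% to 14.8% of NR4A FPKM with etelcalcetide and 2.13% to 2.32% with RANKL alone. The Nr4a3 shares with RANKL alone rest on 7, 9 and 8 reads.

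Nr4a1, also called Nur77 (chromosome 15, 101254269 to 101274795, plus strand), is needed for patrolling monocytes in mice. It had 7.02, 9.02 and 8.45 FPKM with etelcalcetide, against 1.72, 1.67 and 2.35 FPKM with RANKL alone. The groups did not overlap, the lowest treated library standing at 2.98 times the highest RANKL library. The log2 fold change was 1.97 (SE 0.141).

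Nr4a2, also called Nurr1 and known for its role in dopamine neurons (chromosome 2, 57106830 to 57124003, minus strand), had 7.30, 8.16 and 9.44 FPKM with etelcalcetide and 1.81, 2.36 and 1.53 FPKM with RANKL alone. Its levels overlapped those of Nr4a1 within each group. The log2 fold change was 2.01 (SE 0.146).

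Nr4a3, also called Nor1 (chromosome 4, 48045153 to 48086447, plus strand), had 2.31, 2.77 and 3.10 FPKM with etelcalcetide and 0.0766, 0.0947 and 0.0920 FPKM with RANKL alone. These values rest on 213, 228 and 302 reads in the etelcalcetide libraries and on only 7, 9 and 8 reads in the RANKL libraries, so the fold is limited by the depth of the RANKL group. The log2 fold change was 3.85 (SE 0.189) with a pseudocount of 0.1 FPKM, 1.74 with 1 FPKM and 4.73 with 0.01 FPKM. The ratio of depth-adjusted reads, which needs no pseudocount, was 29.4 with a 95% exact conditional interval of 19.6 to 46.2, covering counting error only.

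The 3 receptors together reached 19.2 ± 2.28 FPKM with etelcalcetide and 3.90 ± 0.267 FPKM with RANKL alone. Nr4a3 was the lowest member in both groups, yet its share of the NR4A sum was 14.2% ± 0.519 with etelcalcetide and 2.25% ± 0.104 with RANKL alone. The share with RANKL alone rests on 7, 9 and 8 reads of Nr4a3, with a counting error of 35.4%. Its SD therefore understates its uncertainty. From the highest mean level down, the order of all 8 genes was Egr1, Nab2, Nab1, Egr3, Egr2, Nr4a2, Nr4a1 and Nr4a3 with etelcalcetide, where only Nr4a2 and Nr4a1 overlapped as neighbours. With RANKL alone it was Nab1, Nab2, Egr1, Egr2, Egr3, Nr4a1, Nr4a2 and Nr4a3, with overlaps between Egr1 and Egr2 and between Nr4a1 and Nr4a2.

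The spread between replicates exceeded counting error in both groups for Egr2, Nab1, Nr4a1 and Nr4a2, and with etelcalcetide for every member except Egr3. Replicate number is also the order of the labelled days, and the part of labelled day in this spread was not tested. With RANKL alone Nab1 varied by 14.3% where counting gives 2.89%, and Egr2 by 17.8% where counting gives 5.28%. With etelcalcetide the coefficient of variation of Nr4a1 was 12.6% where counting error alone gives 4.81%, and that of Nr4a2 was 13.0% where counting gives 4.42%. For Nr4a3 with RANKL alone the spread of 11.1% was below the counting error of 35.4%. Egr3 varied by 2.52% with etelcalcetide, below its counting error of 3.08%, but by 7.62% with RANKL alone, above its counting error of 6.49%. Egr1 with RANKL alone varied by 2.82%, below its counting error of 4.50%. Nab2 varied by 3.84% with etelcalcetide and by 2.09% with RANKL alone, where counting gives 2.92% and 4.07%.

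Genes that act before, with and after these factors were read from lists chosen with earlier results of these data known. Other immediate-early genes moved mostly upwards: of 26 tested among 27 listed, 19 rose, 5 fell and 2 did not pass, beside 26.6% and 28.5% of all tested genes, with a median log2 fold change of 0.98. Dusp5, a nuclear phosphatase of ERK, rose to 16.9 ± 1.03 FPKM with etelcalcetide, against 2.51 ± 0.286 FPKM with RANKL alone (log2 fold change 2.63, limma adjusted p = 2.57e-10). Btg2, an antiproliferative gene, rose to 48.1 ± 4.42 FPKM, against 17.5 ± 0.316 FPKM with RANKL alone, and Zfp36, which destabilises cytokine messages, rose to 42.1 ± 1.77 FPKM, against 18.1 ± 0.962 FPKM. Fos was picked out with its value known, and did not pass (19.2 ± 1.85 FPKM with etelcalcetide and 17.5 ± 1.61 FPKM with RANKL alone, limma adjusted p = 0.607).

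Messages of the kinase cascade that induces EGR genes moved in both directions. Of 17 ERK cascade genes tested among 20 listed, 5 rose, 5 fell and 7 did not pass, shares near the 26.6% higher and 28.5% lower of all tested genes (median log2 fold change 0.01). The count that fell was 3 with library totals alone and also 3 without each of etelcalcetide replicates 1, 2 and 3 and without RANKL replicate 2. Mapk3, which encodes ERK1, rose to 75.5 ± 2.53 FPKM with etelcalcetide, against 51.3 ± 2.85 FPKM with RANKL alone (limma adjusted p = 1.34e-05), and Nras fell to 31.7 ± 1.88 FPKM, against 40.7 ± 1.34 FPKM. Spred1, an inhibitor of the cascade, fell to 61.6 ± 0.793 FPKM, against 111 ± 9.30 FPKM (log2 fold change -0.92, limma adjusted p = 4.62e-08).

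Of 18 transcription factors and cofactors of the SRF, MEF2 and CREB routes tested among 19 listed, 6 rose and 3 fell. The remaining 9 did not pass (median 0.03). Over all tested genes 26.6% were higher and 28.5% lower, and the NuRD counts below are also read beside these shares. The CREB coactivators Crtc2 and Crtc3 rose, with log2 fold changes of 0.42 and 0.57 (limma adjusted p = 0.000156 and 3.28e-05), and Atf1, a CREB relative, fell by 0.59 on the log2 scale (limma adjusted p = 1.36e-05). Of 13 NuRD subunits, the complex that NAB proteins recruit, 2 rose, 6 fell and 5 did not pass (median -0.09), and 4 rose with library totals alone. Chd3, an ATPase of the complex, fell to 15.7 ± 0.880 FPKM with etelcalcetide, against 24.96 ± 1.10 FPKM with RANKL alone, and Rbbp7 and Hdac2 fell by 0.50 and 0.48 on the log2 scale. The RXR partners Rxra and Rxrb did not pass (limma adjusted p = 0.276 and 0.322), and Rxrg had 0 reads in all libraries.

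Of 13 genes described elsewhere as EGR targets and tested, among 16 listed, 6 rose, 4 fell and 3 did not pass, beside 26.6% higher and 28.5% lower over all tested genes (median 0.05), and Fasl had 0 reads. Id3, an inhibitor of helix-loop-helix factors, rose to 40.9 ± 2.20 FPKM with etelcalcetide, against 4.70 ± 0.526 FPKM with RANKL alone (limma adjusted p = 3.90e-11), and Icam1, an adhesion molecule, rose to 69.4 ± 2.79 FPKM, against 21.2 ± 0.775 FPKM (limma adjusted p = 7.80e-11). Plau, the urokinase plasminogen activator, fell to 8.29 ± 0.203 FPKM, against 95.7 ± 15.6 FPKM (log2 fold change -3.58, limma adjusted p = 7.05e-12). Of 6 genes tied to NR4A receptors, 2 rose, 2 fell and 2 did not pass, beside the same shares of all tested genes (median -0.16). Ccr7, which needs Nr4a3 in mouse dendritic cells, rose to 16.1 ± 3.25 FPKM, against 0.136 ± 0.106 FPKM, a value that rests on 4, 1 and 7 reads in the RANKL libraries. Like Nr4a3, Ccr7 passed the filter only through the etelcalcetide libraries. Ikbke, a kinase induced by Nr4a1 in macrophages, rose to 4.30 ± 0.335 FPKM, against 1.10 ± 0.0315 FPKM, and Eno3, a muscle enolase, fell to 48.3 ± 8.08 FPKM, against 91.9 ± 11.9 FPKM.

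**Figure D4:**
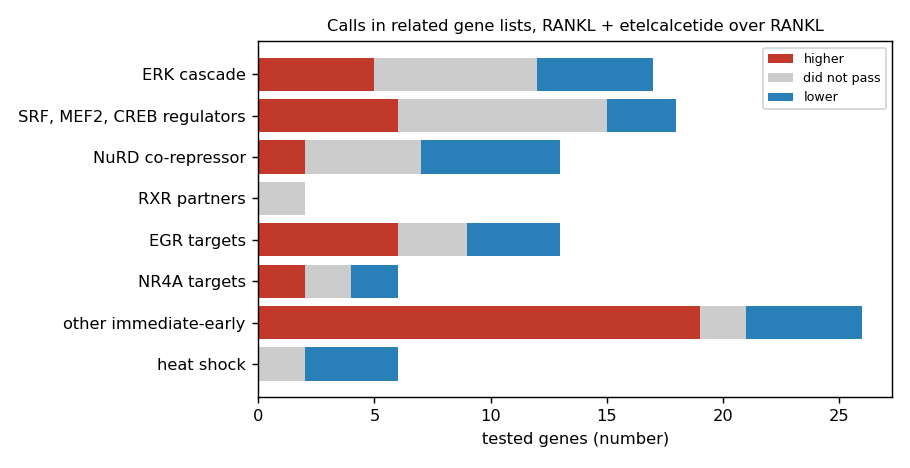
Number of tested genes in each related list that were called higher (red), called lower (blue) or did not pass (grey), RANKL plus etelcalcetide over RANKL, by limma at an adjusted p under 0.05. Of 26 other immediate-early genes 19 were higher, while EGR targets held 6 higher and 4 lower.

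Immediate-early genes also respond to handling of cells, so heat shock genes were read beside them. Of 6 tested among 8 listed, 0 rose, 4 fell and 2 did not pass (median -0.42). Over all tested genes 26.6% were higher and 28.5% lower. Hsph1 fell to 17.7 ± 1.76 FPKM with etelcalcetide, against 37.7 ± 3.14 FPKM with RANKL alone, and Hspa1b fell to 2.64 ± 0.298 FPKM, against 6.61 ± 1.21 FPKM (limma adjusted p = 2.39e-08 and 2.90e-06). Hspa8, the constitutive chaperone, fell by 0.34 on the log2 scale (limma adjusted p = 0.000229). Hspb1 had 0 reads. Mitochondrial genes took at most 3.38% of reads with etelcalcetide and at most 4.10% with RANKL alone, with overlapping ranges. The part of handling in the values of the EGR and NR4A genes was not tested.

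The genes, other than the 8, whose profiles lay nearest to Egr2 and Nr4a1 were found by the root-mean-square difference of centred log2(FPKM + 0.1) values over the 6 libraries, a description that mostly reflects the difference between the groups. Nearest to Nr4a1 were Entpd1, Plk2 and Gadd45a, at 0.0550, 0.0969 and 0.118 log2 units, and 27 genes lay within 0.2. Gadd45a rests on 3, 3 and 5 reads in the RANKL libraries. Nearest to Egr2 were Abtb1, Cacna1a and H2-DMa, at 0.0518, 0.0542 and 0.0627 log2 units, and 578 genes lay within 0.2. The log2 fold change was 0.80 for Egr2 and 1.97 for Nr4a1, and smaller fold changes are more common. The higher count for Egr2 thus follows from its fold size and is not read as a trait of its profile.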

How the data were processed

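Bulk RNA-seq of 6 libraries was used, grouped by their titles. The authors deposited FPKM per Ensembl gene ID. HISAT2 2.1.0, featureCounts 1.6.0, Trimmomatic 0.38, DESeq2 1.22.1, CASAVA, MultiQC and FastQC are named, without roles, per the submitters' processing notes. GRCh38, a human build, is named there too, but every one of the 55536 IDs matched mouse GENCODE M21 (GRCm38), which gave symbols and coordinates. FPKM times merged exon length gave whole reads for 100% of values above 0, within 0.01 reads.

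The comparison used limma 3.58.1 in R 4.3.3 on log2(FPKM + 0.1), each library first divided by a trimmed mean of M-values (TMM) factor, own implementation, on recovered reads (30% of M values and 5% of A values trimmed; factors 1.01 to 1.04 for etelcalcetide libraries, 0.967 to 0.978 for RANKL libraries), with group as the only term. Fold changes of low genes are understated on this scale. Printed FPKM are as deposited, before scaling. The steps were tested on simulated reads. In the first version the prior variance of limma followed mean FPKM, and the share of false calls was above the nominal level. The prior variance was therefore made to follow mean log2 reads before the real data were fitted here. No share of false calls is given for the chosen version, so it is not claimed to hold the nominal level. The first version is kept as an alternative, and called 5894 genes in the real data, against 6124 with the chosen version.

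The members and lists were chosen with earlier results of these data known. All 8 members were named, and of each list up to 3 genes with the smallest adjusted p and those at 0 reads. Alternatives covered scaling, pseudocount, filter, voom, the replicate block and leaving out each library. Python 3.11.15 with pandas 2.3.3 was used for the tables.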

Additional observations from a re-analysis of the deposited data

How the results depend on the processing

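The 7 members called higher stayed so under all 14 alternatives run, which were the other scalings, pseudocounts, filter, voom, prior variance, replicate block and each library left out. In the main fit 26.6% of all tested genes were called higher. As the members were chosen with this contrast known, their stable calls describe the processing and are not a result about them. Nab1 was called under none of them, and its log2 fold change of 0.05 became -0.0503 without RANKL replicate 3 and 0.154 without RANKL replicate 1; the cause was not tested. Leaving out 1 library at a time gave 0.65 to 0.91 for Egr2, 2.66 to 2.73 for Egr1 and 3.75 to 3.96 for Nr4a3. The number of all genes called ran from 5259 to 6504 without 1 library, was 5722 with no filter, and was 5894 with the prior variance following mean FPKM, an alternative added after the simulated reads were seen. Same-numbered libraries did not deviate together (r = 0.0744, -0.0188 and -0.0299 for numbers 1, 2 and 3), and they did not all correlate best with their own number, so the numbers are not taken as pairs; with the replicate block 6146 genes were called and the 7 members remained called. Besides the ERK cascade and NuRD counts given above, 1 RXR partner was called higher without RANKL replicate 3. Depth limits Nr4a3, with 24 reads over the RANKL group.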
